A study of Mus musculus with 31 samples.

Results

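The 10 genes described here are the TGF-beta ligands Tgfb1, Tgfb2 and Tgfb3, the receptors Tgfbr1, Tgfbr2 and Tgfbr3, and the signal carriers Smad2, Smad3, Smad4 and Smad7. They were chosen by symbol, as 10 of the 23509 genes in the count files, and all 10 passed the low-count filter that left 15185 genes for testing. Kidney poly(A) RNA was sequenced from 31 mice in 3 groups. The PBS group held 12 mice of the cystic strain Pcy/CD1 given PBS under the skin, and the RGLS4326 group held 14 Pcy/CD1 mice given 25 mg per kg of RGLS4326 once a month by the same route. RGLS4326 is a short oligonucleotide that binds the microRNA miR-17 through its seed. Dosing began at 5 weeks of age and ran for 25 weeks, to 30 weeks. The wild-type group held 5 untreated male CD1 mice of the same age. The sample labels call PBS dosing weekly, whereas the treatment text names 1 monthly schedule for both Pcy/CD1 groups. The cystic allele was carried by both the PBS and the RGLS4326 groups, so no untreated Pcy/CD1 or treated wild-type kidney was compared here. Pcy/CD1 and CD1 mice came from different suppliers, so colony and disease cannot be told apart.

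TGF-beta ligands are secreted in a latent form and are freed in the matrix. The active dimer binds the type II receptor, encoded by Tgfbr2, which then phosphorylates the type I receptor, encoded by Tgfbr1, while betaglycan, encoded by Tgfbr3, presents ligand at the cell surface. The type I receptor phosphorylates Smad2 and Smad3, these join the common partner Smad4 and enter the nucleus, and Smad7 feeds back to block the receptor. In the kidney the pathway is known for driving scar matrix. Tgfbr2 is one of the genes of the study's miR-17 response signature for in vitro work. It is not in the shorter set that the study used for its Pkd2-KO mice.

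Tgfbr2 is the member in the study's miR-17 response signature, so the miR-17 seed and its match in Tgfbr2 are shown first. MicroRNAs of the miR-17 family share bases 2 to 8, the seed, which stands in capitals in 3 mature sequences taken from RefSeq (GRCm38.p6).
mmu-miR-17-5p: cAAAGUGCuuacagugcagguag
mmu-miR-20a-5p: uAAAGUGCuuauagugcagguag
mmu-miR-106b-5p: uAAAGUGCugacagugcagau
In all, 7 mature mouse microRNAs in that table carry this seed. Its DNA match, GCACTTT in the sense of the transcript, was searched in the longest annotated 3′UTR of each gene (GENCODE vM21, GRCm38). It occurred in 2002 of 13840 tested genes with a 3′UTR (14.5%), and in 3 of the 10 members. The single match in Tgfbr2 lies in the last of its 8 exons, 298 bases after the stop codon, and is followed by an A, which makes it an 8-base site (capitals). It occupies chr9:116090074-116090080 on the minus strand, within the window chr9:116090063-116090091 printed here.
Tgfbr2 3′UTR: caataacgtttGCACTTTAttaatgcctg
The 3′UTR of Tgfbr2 is 6.09 kb long, and among 668 genes whose 3′UTR length was within 25% of it, 43.9% held the same letters. Smad2 held 2 such matches in 6.23 kb and Smad7 held 1 in 1.57 kb, whereas the other 7 members held none. A match describes the letters only and is not evidence of a bound site.

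The kidneys gave 14892524 to 27459962 counts on genes per mouse (median 19961466). Levels are given as CPM, counts brought to equal library size by TMM factors from edgeR, and a change is called where the quasi-likelihood test of edgeR, adjusted by Benjamini-Hochberg over all tested genes, gave an adjusted p under 0.05. Members with few reads were measured least precisely: Tgfb3 had 24 to 39 counts and Tgfb2 30 to 79 counts in wild-type mice, against 2024 to 2142 counts of Tgfbr2. RGLS4326-treated mouse 9 stood apart from its group, with 2.76 CPM of the tubular injury marker Lcn2 against a group median of 354 CPM and a wild-type range of 0.944 to 11.2 CPM. Counts of wild-type mice 3 and 4 were closest to each other but lay further apart than sampling noise, so they count as 2 mice. Counts of calls in RGLS4326 against PBS are also given without RGLS4326-treated mouse 9.

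Per kilobase of exon, the scale on which genes can be compared, the receptors and Smads had higher means than the ligands in each group. In PBS kidneys Tgfbr2 had the highest level, 21.6 ± 1.99 CPM per kb (SD, n = 12). Smad4 followed at 12.98 ± 0.827 and Smad3 at 11.9 ± 0.850 CPM per kb, and the ranges of 1 SD around these neighbours overlapped. Tgfbr1 stood at 8.71 ± 0.985 CPM per kb. Smad2, Tgfbr3 and Smad7 formed a run of 6.45, 5.92 and 5.71 CPM per kb whose neighbours did not differ beyond their spread. The ligands came last, with Tgfb1 at 4.41 ± 0.898, Tgfb2 at 1.84 ± 0.691 and Tgfb3 at 1.80 ± 0.471 CPM per kb, the last of these pairs not separated. The range of 1 SD around Tgfb1 also overlapped those of Smad7 (SD 0.516) and Tgfbr3 (SD 0.945). In wild-type kidneys Smad4 and Tgfbr2 shared the top level, 15.2 ± 0.825 and 15.2 ± 0.185 CPM per kb (SD, n = 5).

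Cystic kidneys carried more mRNA of all 3 TGF-beta ligands and of the type II receptor than wild-type kidneys. The comparison of PBS with wild-type mice asks how the pathway differed between cystic and normal kidneys at 30 weeks of age. Of the 10 members, 5 rose (Tgfb1, Tgfb2, Tgfb3, Tgfbr2 and Smad3), 2 fell (Smad4 and Smad7) and 3 did not pass the test. Across all tested genes 74.3% were called in this comparison, 37.7% higher and 36.6% lower, so 7 of 10 members is close to the background. With library totals alone, without TMM factors, 9 members were higher and 0 lower (edgeR), against 62.6% and 15.6% of all genes on that scale. A log2 fold change beyond 0.5 as well was reached by 4 members, against 42.4% of all genes, and the same 4 (the ligands and Tgfbr2) did not overlap between the groups, being higher in every PBS mouse, against 42.2% of all genes without overlap and 20.3% without overlap and higher. The median log2 fold change was 0.14 over the members and 0.01 over all genes tested.

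Among the ligands, Tgfb1, the form most studied in scarring, read 10.6, 9.09, 11.3, 13.1 and 11.1 CPM in the wild-type mice. PBS kidneys read from 15.7 to 29.2 CPM with a median of 22.5, so that the lowest cystic kidney was above the highest wild-type kidney. The log2 fold change was 1.02 (standard error 0.17), a 2.02-fold rise (adjusted p = 4.19e-06, edgeR). Tgfb2 is the ligand that binds poorly to the type II receptor without betaglycan. It read 1.77, 3.39, 2.96, 4.78 and 3.37 CPM in wild type and from 5.51 to 17.4 CPM (median 9.02) with PBS. These groups did not overlap either, and the PBS mice were widely spread, with a coefficient of variation of 37.6%. Tgfb2 rose by 1.71 (log2 units, standard error 0.31, 95% interval 1.07 to 2.35, adjusted p = 1.46e-05, edgeR), or 3.27-fold. Tgfb3 read 2.30, 2.20, 2.13, 2.36 and 1.45 CPM in wild type and from 3.25 to 8.60 CPM (median 5.97) with PBS. Every PBS mouse again exceeded every wild-type mouse, and the rise was 1.54 (log2 units, standard error 0.22, adjusted p = 4.05e-07, edgeR), or 2.91-fold.

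**Figure D1:**
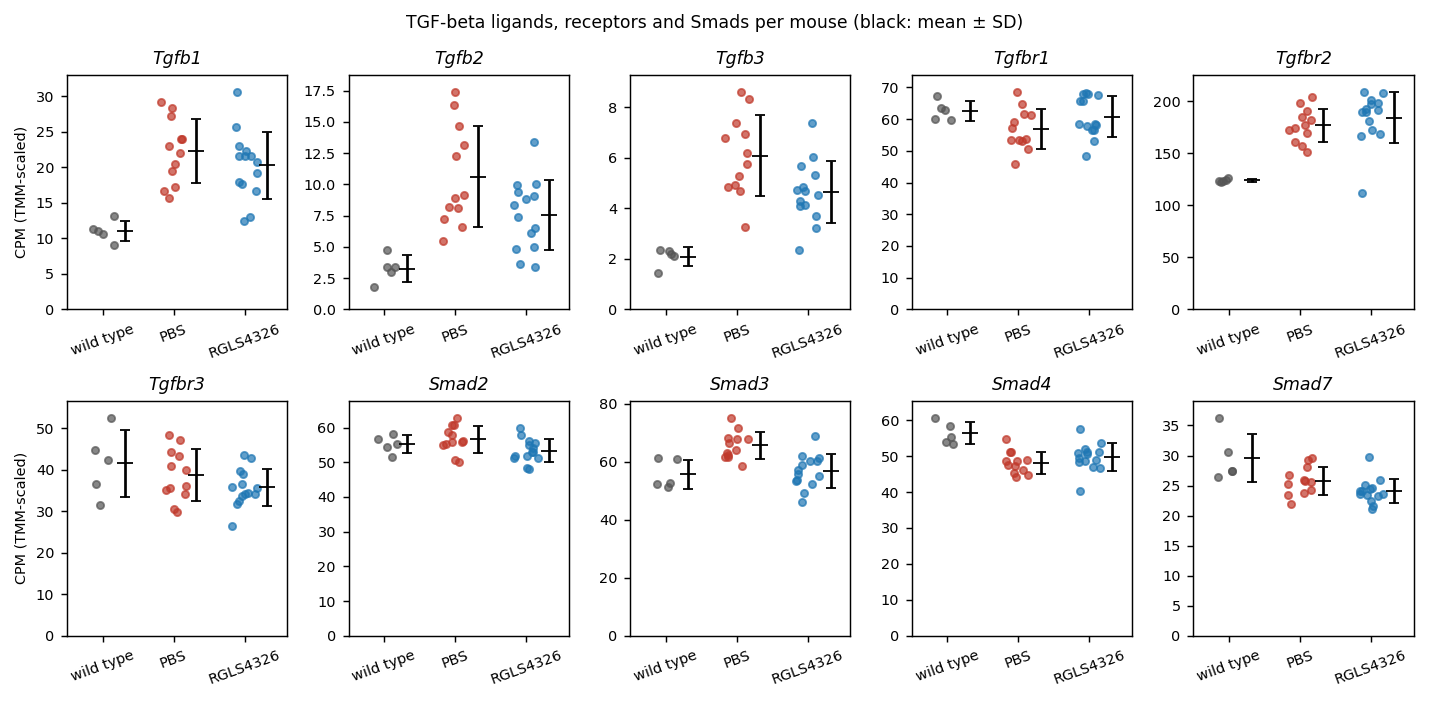
Level of each of the 10 members in each mouse, in CPM on a linear axis that starts at 0. Each point is 1 mouse (5 wild type, 12 PBS, 14 RGLS4326) and the black bars give the group mean ± SD. The ligands and Tgfbr2 in PBS mice lie above all wild-type mice, and the lowest Tgfbr2 point, 112 CPM, is RGLS4326-treated mouse 9.

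Because Tgfb2 and Tgfb3 rose more than Tgfb1, the make-up of ligand mRNA differed. Per length, Tgfb1 made up 65.0% ± 3.84 of the 3 ligands in wild type (SD, n = 5), 55.5% ± 5.39 with PBS (n = 12) and 60.4% ± 4.06 with RGLS4326 (n = 14). Tgfb2 made up 16.5% ± 4.13, 22.3% ± 4.06 and 19.2% ± 4.19 in the same order. Ratios of 2 genes within a library do not depend on how libraries are scaled, and 4 ratios were tested in 2 comparisons, with p-values adjusted over these 8 tests. The log2 ratio of Tgfb2 to Tgfb1 was higher in PBS than in wild-type mice by 0.68 (exact permutation test, two-sided p = 0.00727, adjusted p = 0.0116). The ratio of Tgfb3 to Tgfb1 was higher by 0.51 (exact permutation test, two-sided p = 0.00323, adjusted p = 0.00862). Within the 3 series into which the deposited library numbers fall, these differences were 0.74, 0.61 and 0.64 for Tgfb2 to Tgfb1 and 0.21, 0.60 and 0.97 for Tgfb3 to Tgfb1. The third series held only 1 wild-type mouse, mouse 5, which had the lowest Tgfb3 of its group (24 counts).

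At the receptor level, Tgfbr2 rose, while Tgfbr1 and Tgfbr3 did not pass the test after TMM scaling. With library totals alone, where the typical gene was higher too, they read 0.23 and 0.26 and passed (adjusted p = 0.0210 and 0.0273, edgeR). Tgfbr2 read 126, 125, 124, 123 and 123 CPM in the wild-type mice, a coefficient of variation of 1.22%. PBS kidneys read from 151 to 204 CPM (median 176), with no overlap. The rise was 0.51 (log2 units, standard error 0.09, adjusted p = 9.84e-06, edgeR), or 1.43-fold. Tgfbr1, the signalling type I receptor, averaged 62.6 ± 3.11 CPM in wild type (n = 5) and 56.9 ± 6.44 CPM with PBS (n = 12), overlapping in range. Its log2 fold change was -0.14 with an interval of -0.30 to 0.02 (adjusted p = 0.105, edgeR), and without PBS mouse 4 it passed as lower (adjusted p = 0.0445, edgeR). Within libraries, the log2 ratio of Tgfbr2 to Tgfbr1 was 0.99 ± 0.08 in wild type (n = 5) and 1.64 ± 0.13 with PBS (n = 12). The difference of 0.65 had an exact permutation p of 0.000162 (two-sided, adjusted p = 0.000646), the smallest p these group sizes allow. It was 0.65, 0.63 and 0.65 within the 3 library-number series, the third of which held only 1 wild-type mouse. Tgfbr3 averaged 41.5 ± 7.997 CPM in wild type and 38.7 ± 6.18 CPM with PBS, with a log2 fold change of -0.10 (interval -0.33 to 0.13, adjusted p = 0.421, edgeR).

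Among the Smads, the changes were small and went both ways. Smad3 read 61.3, 52.6, 51.2, 52.1 and 60.8 CPM in wild type and from 58.6 to 75.0 CPM (median 65.2) with PBS. The groups overlapped, since 2 wild-type mice reached the lower PBS values, and the rise was 0.24 (log2 units, standard error 0.07, adjusted p = 0.00258, edgeR). Smad2, which carries the same signal, averaged 55.3 ± 2.56 CPM in wild type and 56.6 ± 3.86 CPM with PBS, with a log2 fold change of 0.04 (interval -0.07 to 0.14, adjusted p = 0.522, edgeR). The common partner Smad4 read 53.5, 55.2, 58.4, 60.6 and 53.8 CPM in wild type and from 44.3 to 54.8 CPM (median 48.1) with PBS. All but 1 PBS mouse lay below the wild-type range, and Smad4 fell by 0.22 (log2 units, standard error 0.05, adjusted p = 0.000467, edgeR). The inhibitor Smad7 read 36.2, 30.6, 26.5, 27.4 and 27.5 CPM in wild type and from 21.9 to 29.6 CPM (median 25.7) with PBS. These ranges overlapped, and Smad7 fell by 0.20 (log2 units, standard error 0.07, adjusted p = 0.0141, edgeR). The call for Smad7 rested on wild-type mouse 1, since without it the log2 fold change was -0.11 (adjusted p = 0.153, edgeR), and it was also lost with PBS and wild-type mice fitted alone (-0.17, adjusted p = 0.0526, edgeR).

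Both Smad decreases are relative to the typical gene. TMM factors were lower in wild-type than in PBS libraries, and with library totals alone the median log2 fold change over all tested genes moved from 0.01 to 0.38. On that scale Smad4 and Smad7 turned to 0.14 and 0.18. The ratio of Smad7 to Smad3, which no scaling touches, was lower in PBS than in wild-type mice by 0.44 on the log2 scale (exact permutation test, two-sided p = 0.000162, adjusted p = 0.000646), and by 0.52, 0.49 and 0.18 within the 3 series. The last of these values rests on 1 wild-type mouse. The ligands and Tgfbr2 were higher under each scaling tried.

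**Figure D2:**
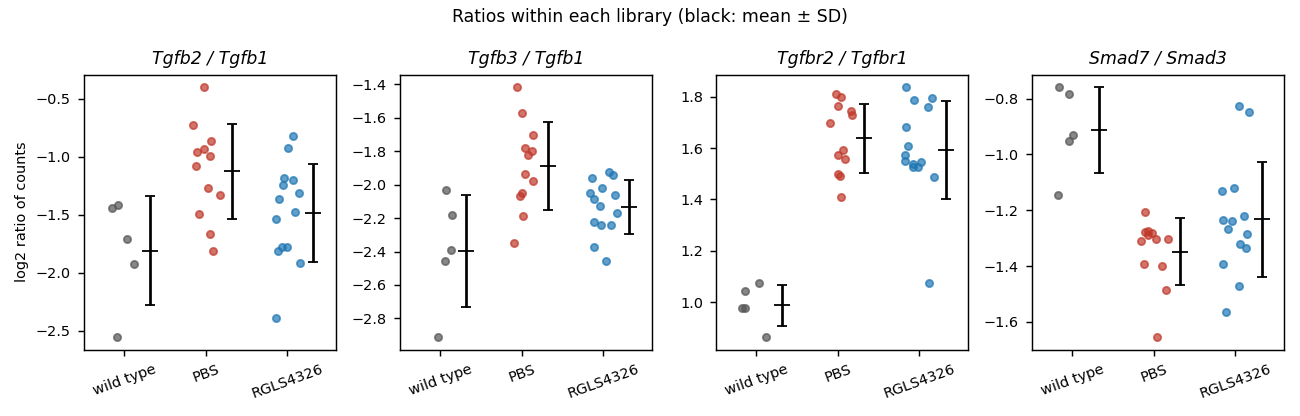
Log2 ratio of counts of 2 members within each library, 1 point per mouse, with the group mean ± SD in black. The ratio of Tgfbr2 to Tgfbr1 lies near 0.99 in wild type and near 1.64 with PBS, and the ratio of Smad7 to Smad3 is lower with PBS than in wild type.

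These are whole kidneys, in which fewer cells of a type and less RNA per cell cannot be told apart. Markers of several cell types moved between PBS and wild-type mice together with the ligands. All 6 macrophage markers, all 6 lymphocyte markers, all 6 tubular injury markers and 4 of 6 fibroblast markers were higher, and all 6 proximal tubule markers were lower. The fibroblast markers Pdgfra, at a log2 fold change of 0.50, and Lum, at -0.57, did not pass (adjusted p = 0.0543 and 0.180, edgeR). Of 6 collecting duct markers 5 were higher and 1 was lower, and their sum ranged from 530.4 to 884 CPM in wild type and from 1384 to 2882 CPM with PBS. The summed fibroblast markers ranged from 109 to 155 CPM in wild type and from 367 to 787 CPM with PBS, and the macrophage markers from 152 to 161 CPM and from 260 to 393 CPM. The proximal tubule markers fell from a range of 14930 to 16510 CPM to one of 4419 to 8996 CPM, which also marks the tissue as kidney. Col1a1, Col3a1 and Dcn, which are among the fibroblast markers, also stand in the pathway lists used later, so these lists are not separate measures. No marker in these lists was at 0 in any mouse. The part of these cell types in the members' changes was not tested.

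With RGLS4326, 1 of the 10 members changed against PBS. That member was Smad3, and it was lower in treated kidneys. Without mouse 9, where 8.14% of all genes were called, it was again Smad3 alone, at -0.205 (adjusted p = 0.0199, edgeR). No member rose, and none passed both the test and a log2 fold change beyond 0.5. Across all genes 15.8% were called, 9.15% higher and 6.66% lower, so 1 of 10 members is no more than the background, and 2.15% of all genes passed both criteria. At an unadjusted p under 0.05, 4 members were lower (Tgfb2, Tgfb3, Smad2 and Smad3), against 36.8% of all genes in either direction. The median log2 fold change was -0.11 over the members and -0.0043 over all genes. With library totals alone, which moved the median of all genes to -0.12, 6 members were lower (Tgfb2, Tgfb3, Tgfbr3, Smad2, Smad3 and Smad7), against 27.2% of all genes on that scale.

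Smad3 read from 46.0 to 68.9 CPM (median 56.4) in RGLS4326-treated kidneys, against 58.6 to 75.0 CPM (median 65.2) with PBS. The groups overlapped, although the median treated kidney lay below the lowest PBS kidney. Smad3 fell by 0.21 (log2 units, standard error 0.05, 95% interval -0.31 to -0.11, adjusted p = 0.0120, edgeR), to 0.863 times the PBS level. The call held in 26 of 26 fits that each left out 1 PBS or RGLS4326 mouse, with adjusted p from 0.00369 to 0.0300 (edgeR). It was lost within the single library-number series, where the log2 fold change was -0.12, -0.26 and -0.26 (adjusted p = 0.9998, 0.298 and 0.179, edgeR on the smaller groups). Of all genes tested, 0 were called in each of these fits, so the missing call is not particular to Smad3. Against wild type, Smad3 in treated mice had a log2 fold change of 0.03 with an interval of -0.11 to 0.16 (adjusted p = 0.732, edgeR).

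The ligands read lower with RGLS4326 but missed the threshold after adjustment across genes. Tgfb2 read from 3.43 to 13.4 CPM (median 7.86) in treated mice, overlapping the PBS range of 5.51 to 17.4 CPM. Its log2 fold change was -0.49 (standard error 0.20, adjusted p = 0.0793, edgeR), and it passed in 2 of 26 fits that left out 1 mouse (without PBS mouse 1 or RGLS4326 mouse 2, adjusted p down to 0.0315, edgeR). Tgfb3 read from 2.35 to 7.36 CPM (median 4.61) in treated mice, against 3.25 to 8.60 CPM with PBS. The groups overlapped, and its log2 fold change of -0.39 (standard error 0.14) had an adjusted p of 0.0539 in edgeR, which passed in 7 of 26 fits that left out 1 mouse and in DESeq2 (adjusted p = 0.0409). Tgfb1 read from 12.4 to 30.6 CPM (median 21.1), much as with PBS, with a log2 fold change of -0.14 and an interval of -0.37 to 0.10 (adjusted p = 0.394, edgeR). Within libraries the log2 ratio of Tgfb3 to Tgfb1 was lower with RGLS4326 by 0.25 (permutation test, two-sided p = 0.00654, adjusted p = 0.0116), with within-series differences of -0.09, -0.33 and -0.29. The ratio of Tgfb2 to Tgfb1 differed by -0.36 (permutation test, two-sided p = 0.0388, adjusted p = 0.0518), which missed the threshold after adjustment, and by -0.02, -0.42 and -0.59 within the series.

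Tgfbr2, the member with the 8-base miR-17 match, did not differ detectably between treated and PBS kidneys. It read from 112 to 209 CPM (median 191) with RGLS4326 and from 151 to 204 CPM with PBS, and 13 of the 14 treated mice stood at 167 CPM or higher. The log2 fold change was 0.06 with an interval of -0.07 to 0.19 (adjusted p = 0.520, edgeR), or between 0.950 and 1.14 times the PBS level. Without mouse 9, whose 112 CPM was the lowest value in all 31 mice, it was 0.10 (adjusted p = 0.117, edgeR). With library totals alone it was -0.05. The ratio of Tgfbr2 to Tgfbr1 differed by -0.05 (permutation test, two-sided p = 0.507). The other members with a match, Smad2 and Smad7, had log2 fold changes of -0.09 (interval -0.16 to -0.01, adjusted p = 0.0947, and 0.0490 without PBS mouse 1) and -0.10 (interval -0.21 to 0.01, adjusted p = 0.164, edgeR). Of the members without a match, Tgfbr1 had a log2 fold change of 0.09 (interval -0.02 to 0.21), Tgfbr3 one of -0.12 (interval -0.29 to 0.05) and Smad4 one of 0.05 (interval -0.04 to 0.13), and these did not pass the test.

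**Figure D3:**
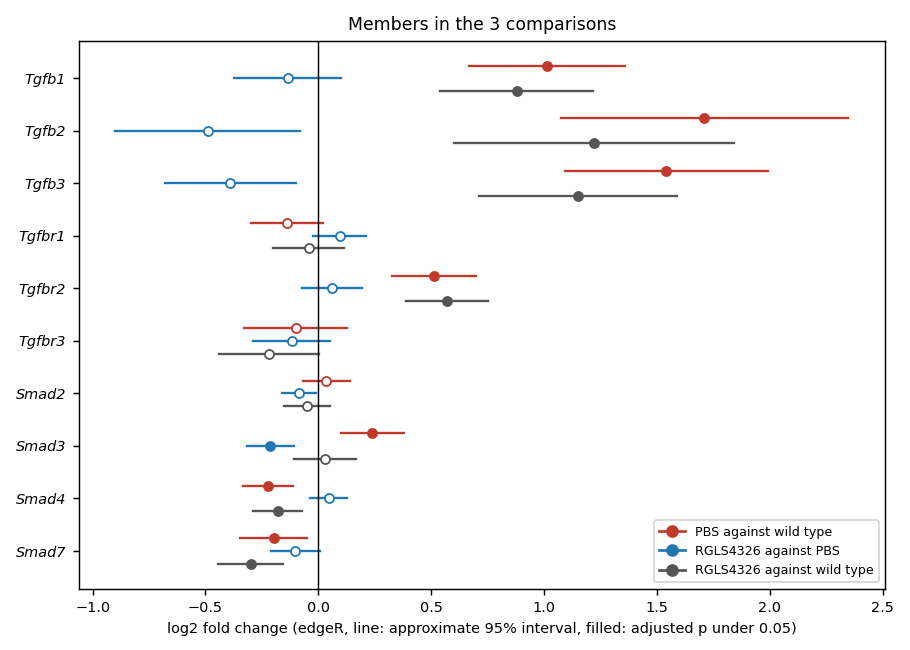
Log2 fold change of each member in the 3 comparisons (points) with its approximate 95% interval (lines), filled where the adjusted p of edgeR's test was under 0.05. In RGLS4326 against PBS only Smad3 is filled, at -0.21, and the interval of Tgfbr2 spans 0.

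Against wild type, 6 of the 10 members differed in RGLS4326-treated kidneys. In all, 4 were higher than in wild type (Tgfb1, Tgfb2, Tgfb3 and Tgfbr2) and 2 were lower (Smad4 and Smad7), against 32.5% and 32.4% of all genes, and 64.9% were called in either direction. The log2 fold changes were 0.88 for Tgfb1, 1.22 for Tgfb2, 1.15 for Tgfb3 and 0.57 for Tgfbr2, with adjusted p from 4.35e-06 to 0.000900 (edgeR). These 4 calls were lost within the second library-number series, which holds mouse 9, where the log2 fold changes were 0.43, 0.66, 0.72 and 0.52 (adjusted p from 0.147 to 0.282, edgeR on the smaller groups). In that fit 0.411% of all genes were called. Within the first series, where 51.7% of all genes were called, these 4 passed. Their log2 fold changes there were 1.235, 1.918, 1.36 and 0.688 (adjusted p from 0.0003425 to 0.004509, edgeR). Smad4 fell by 0.18 (adjusted p = 0.00426) and Smad7 by 0.30 (adjusted p = 0.000505, edgeR) on the log2 scale, and with library totals alone these values were 0.07 and -0.04 and did not pass. On that scale 7 members were higher (the same 4 with Tgfbr1, Smad2 and Smad3) and 0 lower (edgeR), against 55.6% and 13.7% of all genes. No member separated the groups completely, whereas 14.8% of all genes did. Mouse 9 contributed to this overlap: it read 13.04 CPM of Tgfb1, 3.43 CPM of Tgfb2 and 2.35 CPM of Tgfb3, each within the wild-type range, and its 29.7 CPM of Smad7 was the highest of the treated group. Without it the log2 fold changes of Tgfb2 and Tgfbr2 were 1.29 and 0.62. PBS and wild-type mice are each used in more than 1 of these comparisons, so their values are given side by side only.

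The members were also followed against Lcn2, which encodes the secreted injury protein Ngal, within each Pcy/CD1 group. Over 20 relations, p-values came from permuting mice and were adjusted together, and 7 passed by Pearson's r (13 with library totals in place of TMM-scaled sizes), 9 by Spearman's rho and 5 by both. Relations with Lcn2 were common: at an unadjusted permutation p under 0.05, 49.8% of all tested genes passed by r in PBS mice and 48.0% in RGLS4326-treated mice (10000 resamples), against 5 of 10 members in each group, so the members' count is at the background. In PBS mice (n = 12) Tgfb2 rose with Lcn2, with r = 0.923 (permutation, adjusted p = 0.000300) and rho = 0.916 (adjusted p = 0.000200). Leaving out the 2 mice farthest from the median of Lcn2 gave r = 0.881, and 3.84% of all tested genes had an r at least as large in size as 0.923 over the 12 mice. Smad3 in PBS mice had r = 0.897 (permutation, adjusted p = 0.000400) and rho = 0.888 (adjusted p = 0.00155), and r = 0.831 without those mice, and 7.13% of all genes reached that r of 0.897. Tgfb3 followed with r = 0.779 and rho = 0.888 (permutation, adjusted p = 0.0128 and 0.00153), and Smad2 with r = 0.738 and rho = 0.860 (permutation, adjusted p = 0.0204 and 0.00252). Without the 2 farthest mice these were r = 0.680 and 0.566, and 24.1% and 29.8% of all genes reached the full-group r. Tgfb1 and Smad7 in PBS mice passed by rho alone (0.713 and 0.678, permutation, adjusted p = 0.0307 and 0.0414). Tgfbr2 did not pass in PBS mice, with r = 0.0547 and rho = 0.147 (permutation, adjusted p = 0.863 and 0.725).

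In RGLS4326-treated mice (n = 14) Tgfb2 again rose with Lcn2, with r = 0.774 and rho = 0.912 (permutation, adjusted p = 0.000200 for each), and r = 0.866 without mice 9 and 13, while 18.7% of all genes had an r at least as large in size over the 14 mice. The raw p behind the first of these was the smallest that 100000 resamples can give. Mouse 9 lay far from the rest on the Lcn2 axis, and 2 further relations rested on it and mouse 13. Tgfbr2 had r = 0.869 (permutation, adjusted p = 0.0318) but rho = 0.411 (adjusted p = 0.224), and r = 0.0868 without those 2 mice. Tgfb3 had r = 0.721 and rho = 0.560 (permutation, adjusted p = 0.0178 and 0.0742), and r = 0.406 without them. Smad3 and Smad2 in treated mice passed by rho alone (0.723 and 0.666, permutation, adjusted p = 0.0162 and 0.0307), with r of 0.423 and 0.385. Smad7 turned from r = -0.606 (permutation, adjusted p = 0.0939) to r = 0.717. Each library-number series held 4 or 5 mice of either Pcy/CD1 group, and relations with Lcn2 within a series were not tested.

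**Figure D4:**
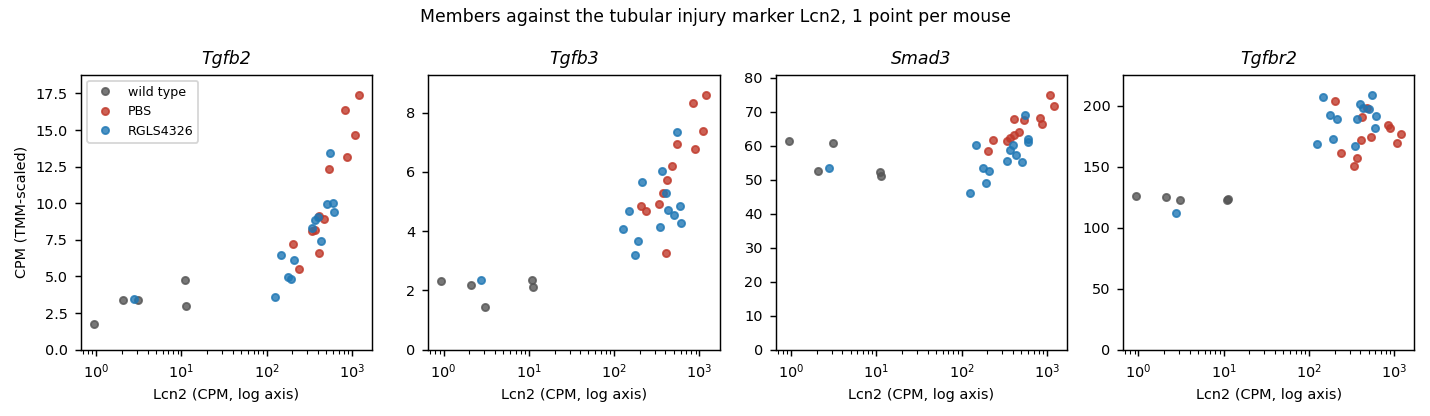
Level of 4 members in CPM (linear axis from 0) against Lcn2 in CPM (log axis), 1 point per mouse, coloured by group. Tgfb2 climbs with Lcn2 in PBS mice (r = 0.923) and in RGLS4326-treated mice (r = 0.774), while Tgfbr2 has r = 0.0547 in PBS mice, and the 1 RGLS4326 point among the wild-type mice is mouse 9.

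Genes with the most similar pattern to each member were sought among 11523 genes, by Pearson correlation of deviations from the group mean over the 31 mice. This is a description, since the points share libraries and depth. For Tgfb2 the closest were Ltbp3 (r = 0.935), which encodes a protein that binds latent TGF-beta, Gnb1 (r = 0.929), a G protein subunit, and Pmepa1 (r = 0.925), an inhibitor of the pathway. For Tgfbr2 they were Msn (r = 0.864), the cytoskeletal linker moesin, C3ar1 (r = 0.845), a complement receptor, and Itpripl2 (r = 0.819). For Tgfb1 the leading gene was Fscn1 (r = 0.903), for Tgfb3 Nlgn2 (r = 0.902), for Tgfbr3 Angpt2 (r = 0.886), for Smad4 Mgat5 (r = 0.882), for Tgfbr1 Rc3h1 (r = 0.835), for Smad3 Scamp5 (r = 0.819), for Smad2 Smarcc1 (r = 0.778) and for Smad7 Cherp (r = 0.648). Among the members themselves the closest pair was Tgfb1 and Tgfb3 (r = 0.806).

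The wider pathway was read from 76 genes in 6 lists, of which 73 were tested. Against wild type, PBS kidneys had 46 of them higher (63.0%) and 19 lower (26.0%), beside 37.7% and 36.6% of all genes, and the list counts that follow are to be read against those shares. Of 22 genes that TGF-beta is known to induce, 18 were higher and 1 was lower, with a median log2 fold change of 2.04 against 0.01 over all genes. Col3a1, a fibrillar collagen chain, rose from 29.4 to 272 CPM (log2 fold change 3.21, adjusted p = 4.45e-09, edgeR), and Loxl2, a collagen crosslinker, from 5.60 to 27.5 CPM (2.29, adjusted p = 4.88e-09, edgeR). The lower gene was Igfbp3, named after its value was seen, at -0.81. Of 13 genes for latency and activation, 8 were higher and 3 lower. Ltbp2, an extracellular matrix protein of the latent binding family, rose from 1.27 to 66.9 CPM, and the integrin subunit Itgav, part of receptors that free latent TGF-beta, fell from 250.4 to 130.2 CPM. All 6 activin ligand and follistatin genes were higher, Fstl1 by 1.51 and Fstl3 by 0.98 on the log2 scale.

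The remaining lists went both ways. Of 12 tested Smad partners and adaptors, 3 were higher and 7 lower. Runx1, a transcription factor that works with Smads, rose by 2.85 on the log2 scale, and the deubiquitinase Usp4 fell by 0.30. Of 13 inhibitors and co-repressors, 8 were higher and 5 lower, among them Ppm1a, a Smad phosphatase, which fell by 0.53, and Strap, which fell by 0.37. Of 7 tested co-receptors and activin-type receptors, 3 were higher and 3 lower, with Acvrl1 higher by 0.80 and Rgmb by 0.67. With library totals alone, 52 of all 73 pathway genes were higher and 8 lower, against 62.6% and 15.6% of all genes on that scale, so the number of falls depends on the scaling.

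With RGLS4326 against PBS, 4 of the 73 pathway genes were higher and 8 lower, against 9.15% and 6.66% of all genes, so the 16.4% called is at the background of 15.8%. No target gene passed in the main edgeR fit (0 of 22), while 6 were lower at an unadjusted p under 0.05 and 2 passed in DESeq2 (Loxl2 and Cdkn2b), against 36.8% and 21.1% of all genes. In the main fit Loxl2 stood at -0.41 (adjusted p = 0.0508) and Cdkn2b, a cell cycle inhibitor, at -0.55 (adjusted p = 0.0533, edgeR). Other edgeR fits did call target genes. Loxl2 passed with the library series as covariate (14.7% of all genes called) and with a filter at a mean of 1 CPM (17.5%). Cdkn2b passed with PBS and RGLS4326 mice fitted alone (10.1%). With library totals alone (30.8%), Cdkn1a, Cdkn2b, Loxl2 and Tagln passed. Thbs1, which activates latent TGF-beta, fell by 0.41 (adjusted p = 0.0292), and Ltbp3 by 0.44 (adjusted p = 0.0368, edgeR). Inha, an inhibin subunit, fell by 0.62, and Tgif2, a co-repressor, by 0.61 (adjusted p = 0.0204 and 0.0272, edgeR). Smurf2, a ubiquitin ligase that acts on Smads and receptors, rose by 0.21 (adjusted p = 0.0259), and Zfyve9, which brings Smads to the receptor, by 0.17 (adjusted p = 0.0131, edgeR). Rgmb, a BMP co-receptor, fell by 0.19, Fstl1 by 0.36 and the deubiquitinase Usp11 by 0.24 (adjusted p = 0.0458, 0.0456 and 0.0421, edgeR), and the type II activin receptor gene Acvr2b, at 0.33, did not pass (adjusted p = 0.0865, edgeR). Without mouse 9, where 8.14% of all genes were called, 2 pathway genes were higher (Smurf2 and Zfyve9) and 3 lower (Thbs1, Inha and Tgif2), with adjusted p from 0.0184 to 0.0492 (edgeR). The calls for Ltbp3, Rgmb, Fstl1 and Usp11 were lost, with log2 fold changes of -0.38, -0.16, -0.30 and -0.22 without it, as were those for Ski, Strap and Ppm1a, at -0.10, 0.09 and 0.10. The calls for Rgmb, Fstl1 and Usp11 were lost as well without the low-count filter and with those 2 groups fitted alone, and that for Ltbp3 in the latter, whereas Thbs1, Inha, Tgif2, Smurf2 and Zfyve9 passed in both. Among the cell type markers, 3 of 6 proximal tubule markers were higher and 4 of 6 collecting duct markers were lower with RGLS4326, whereas 0 of 6 macrophage and 0 of 6 fibroblast markers were called (edgeR), with 1 and 0 at an unadjusted p under 0.05 and none in DESeq2. Without mouse 9 these counts were 1 proximal tubule marker (Slc22a6) higher, 4 collecting duct markers lower, 1 macrophage marker (Emr1) higher and 0 fibroblast markers (edgeR). In DESeq2, 6 proximal tubule markers were higher and 4 collecting duct markers lower, and with PBS and RGLS4326 mice fitted alone 1 and 3 (edgeR). Of the tubular injury, lymphocyte and endothelium lists, 0 of 6 markers each were called with all mice. Lcn2 stood at -0.81 (interval -1.65 to 0.03, adjusted p = 0.148, edgeR). The part of these cell types in the values of the members was not tested.

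RGLS4326-treated kidneys had 45 of the 73 pathway genes higher than wild type (61.6%) and 18 lower (24.7%), beside 32.5% and 32.4% of all genes. Within the first library-number series 56 pathway genes were called (51.7% of all genes), and within the second 1 was (0.411%). Of the 22 target genes 19 were higher and 1 lower, Col3a1 by 2.90 and Col1a2, a type I collagen chain, by 2.29 on the log2 scale. Ltbp2 was higher by 5.11 and Itgav lower, at -0.82. Fstl1 and Fstl3 were higher by 1.15 and 0.86, Acvrl1 and Rgmb by 0.62 and 0.49, and Runx1 by 2.62. Ppm1a, Strap and Usp4 were lower, at -0.41, -0.28 and -0.27. The adjusted p of these 12 named genes ranged from 3.15e-08 to 3.16e-05 (edgeR).

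**Figure D5:**
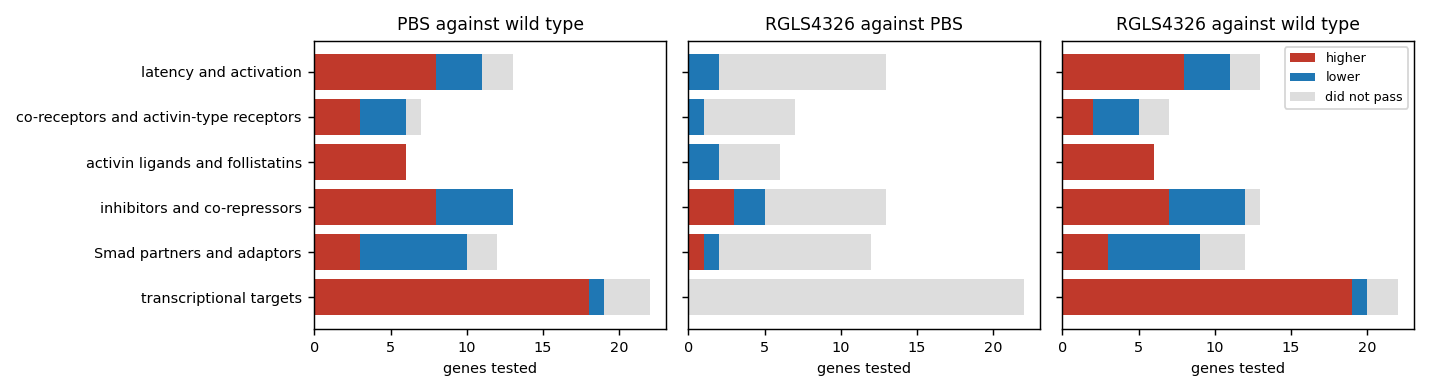
Number of tested genes in each of the 6 pathway lists that were higher (red), lower (blue) or did not pass the test (grey) in each comparison. Among the 22 transcriptional targets, 18 were higher in PBS than in wild type and 0 were called in RGLS4326 against PBS.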

How the data were processed

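The authors prepared stranded poly(A) libraries, trimmed paired reads with Trim Galore, mapped them with STAR to GRCm38 and counted reads per gene with HTSeq 0.6.1. They deposited raw counts, not normalized, for 23509 genes per mouse, and the strand setting and gene annotation used for counting are not given in the sources used here. Rows that name no gene (26.9 to 31.1% of entries per mouse) stayed out of library sizes. Groups came from the sample labels. Pcy/CD1 mice were listed separately, but p-values measure only the spread between these mice. Libraries, named by numbers that restart within each group, fall into 3 series, whose meaning is not labelled.

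Genes passing filterByExpr (15185) were fitted with edgeR 4.0.16 in R 4.3.3 by the quasi-likelihood test, with TMM factors, 1 coefficient per group over all 31 mice and Benjamini-Hochberg adjustment. Standard errors are approximate, the absolute log2 fold change over the square root of F. Ratios used counts with 0.5 added, and Lcn2 relations used log2(CPM + 1). DESeq2 1.42.0 served as another test. The main edgeR setting was checked on simulated counts with known changes, for PBS against wild type and for RGLS4326 against PBS. Python 3.11.15 with scipy 1.17.1 served for permutation tests. Same-numbered mice are different animals (mean correlation of deviations 0.0871, -0.0849 and -0.0297), so numbers do not pair them. Every member was described, with the 2 genes of smallest p per pathway list and comparison and the 3 most similar genes per member (leading ones named). The members and lists were chosen with earlier results of these data known.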

Additional observations from a re-analysis of the deposited data

Results flagged for a closer look

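In the wild-type group the lowest mouse in Tgfb3, at 1.45 CPM, stood apart from the other 4, with a gap to its nearest neighbour of 0.747 of the whole range. It rests on 24 counts. Chance alone gives such a gap in about 1 of 20 groups, and 11 genes were examined in this way, so 1 is within what chance gives.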

How the results depend on the processing

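Counts of members called were 7 (PBS against wild type), 1 (RGLS4326 against PBS) and 6 (RGLS4326 against wild type), beside 74.3%, 15.8% and 64.9% of all genes. With a log2 fold change beyond 0.5 as well, they were 4, 0 and 4, beside 42.4%, 2.15% and 31.5%. With the library series as covariate and with DESeq2, RGLS4326 against PBS gave 2 (Smad3 and Tgfb3), where 14.7% and 21.1% of all genes were called. With library totals alone, chosen after seeing the data, it gave 6 (30.8% of all genes). Within single series, also chosen after seeing the data, it gave 0, 0 and 0, and 0 of all genes were called. PBS against wild type gave 4 in the first series (42.4% of all genes). RGLS4326 against wild type gave 0 in the second (0.411% of all genes). These single-series fits held fewer mice. Leaving out 1 mouse gave 6 to 8, 1 to 4 and 6 to 7. RLE factors and other filters changed none of these 3 counts. The 12 pathway genes called in RGLS4326 against PBS became 2 with the size threshold (2.15% of all genes), 7 without a filter (8.73%), 6 with those 2 groups alone (10.1%), 20 with library totals alone (30.8%), 0 within each series (0 genes in all) and 0 with the block (11 genes in all).

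The replicate block gave 0 members for RGLS4326 against PBS, with Smad3 at -0.19 (adjusted p = 0.0839, edgeR). In the paired form of the ratio tests for PBS against wild type, the block gave 0.61, 0.48, 0.70 and -0.45 for Tgfb2/Tgfb1, Tgfb3/Tgfb1, Tgfbr2/Tgfbr1 and Smad7/Smad3, with exact p from 0.0625, the smallest 5 pairs allow, to 0.125. For Tgfb2/Tgfb1 in RGLS4326 against PBS it gave -0.29, and permuting within series -0.34. With 1 mouse left out the PBS differences ranged from 0.49 to 0.78, 0.38 to 0.60, 0.62 to 0.67 and -0.49 to -0.40, and the RGLS4326 differences from -0.42 to -0.29, -0.29 to -0.20, -0.067 to -0.0065 and 0.085 to 0.14.

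Directions that turned were those of small changes. With library totals alone they were, against wild type, PBS Tgfbr1 0.23, Tgfbr3 0.26, Smad4 0.14 and Smad7 0.18, and RGLS4326 Tgfbr1 0.21, Tgfbr3 0.033, Smad2 0.21 and Smad4 0.075; in RGLS4326 against PBS, Tgfbr1 -0.015, Tgfbr2 -0.048 and Smad4 -0.067. Here the median of all genes moved by 0.37, 0.26 and -0.11. Within series, PBS against wild type turned for Tgfbr3 (0.19) and Smad2 (-0.034), RGLS4326 against PBS for Tgfb1 (0.0050), Smad2 (0.0053), Smad4 (-0.0087) and Smad7 (0.022), and RGLS4326 against wild type for Tgfbr1 (0.040) and Tgfbr3 (0.11), and in the replicate block Smad2 (0.037). The 7 Lcn2 relations became 13 with raw library sizes; the cause was not tested. Low counts limit Tgfb2 and Tgfb3 most.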

Other observations

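Some members overlap other annotated genes (GENCODE vM21, GRCm38). Tgfb2 (chr1:186622792-186705989, minus strand) overlaps Gm29491 and Tgfb3 (chr12:86056745-86079041, minus strand) overlaps Gm37804 and Gm48008 on the other strand, and Tgfbr3 overlaps Gm43422 on the same strand. Those neighbours have no row of their own in the count files, so whether their reads entered the members was not tested. In the co-receptor list, Acvr1c and Gpr50 averaged 0.0120 and 0.0239 CPM in wild type and fell below the filter, as did the Smad partner Foxh1 at 0.156 CPM. Inhba, an activin subunit, was measured at 0.144 CPM in wild type and 0.598 CPM with PBS.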
